A study of Homo sapiens with 4 samples.

Results

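The 34 genes described here belong to the cellular response to low oxygen: the subunits of the hypoxia-inducible factors (HIFs), the proteins that control their stability, and HIF target genes that act outside glycolysis. They were taken by gene symbol, and all 34 were found among the 26255 gene symbols of the deposited table. The genes were chosen with earlier results of these data known, so their shares below are a description. RNA of A549, an established cell line from a human lung adenocarcinoma, was sequenced in 4 libraries, 1 for each group. The acinar and solid groups are tumor cells cut by laser microdissection from A549 tumors grown in immunodeficient mice. Acinar tumor forms gland-like structures, and solid tumor grows as sheets. The mix and single groups are GFP-labelled A549 cells sorted out of 3D tumor colonies, grown with cancer-associated fibroblasts (CAFs) in the mix culture and without them in the single culture. The title "mix" was read as the culture with CAFs, since the protocols give no condition other than these. The sources used here do not give the mouse strain and age, the source of the CAFs, the number of tumors or colonies behind a library or the oxygen level of the cultures. All 4 groups are a single cell line, and a tumor library also carries whatever set its tumor or animal apart.

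A HIF is a pair of an α subunit, encoded by HIF1A or EPAS1, and the β subunit encoded by ARNT. When oxygen is plentiful, prolyl hydroxylases of the EGLN family use it to hydroxylate the α subunits, the VHL protein recognises the mark, and the proteasome destroys them. When oxygen is scarce the α subunits persist, pair with ARNT and bind DNA at short sites with the core ACGTG or GCGTG near genes for pH control, vessel growth, mitochondrial turnover and metabolism. The control acts mainly on the α protein, so the mRNA levels of HIF1A and EPAS1 are not a measure of HIF activity. Cells of a tumor mass that lie far from vessels are a classic setting of this response. The data used here hold no measure of oxygen in the acinar or solid areas.

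The values are called scaled counts: the authors' values, most of which behave as fragment counts divided by a size factor, divided in turn by 1 constant for all libraries so that the average library total is 1000000. They are not divided by gene length unless stated. By estimate the libraries held 6630000 fragments in the acinar and 7270000 in the solid tumor, and 12180000 in the mix and 10970000 in the single culture. All 12 A549 and epithelial markers were present in the table at 1 scaled count or more, and summed to 27878 in the acinar tumor, 22010 in the solid tumor, 17154 in the mix culture and 18722 in the single culture. EPCAM, the adhesion molecule of epithelia, was at 28.1 in the acinar and 20.3 in the solid tumor but at 2.09 in the mix and 2.31 in the single culture. KRT7, KRT8, KRT18, KRT19, AKR1C1 and AKR1C2 were also higher in both tumors than in both cultures, by differing amounts. ALDH3A1 and NQO1 were lower in both tumors, and CDH1, AKR1B10 and ALDH1A1 overlapped. CDH1 was at 204 in the acinar and 199 in the solid tumor, and at 120 in the mix and 201 in the single culture. Of the 12 fibroblast markers 7 reached 1 scaled count in some library; the list summed to 96.1 in the acinar and 59.9 in the solid tumor, and to 47.2 in the mix and 44.9 in the single culture, with POSTN listed at 0 in all 4 libraries and DCN at 0.280 or less. LUM made up most of the acinar sum, at 55.4 in the acinar and 19.6 in the solid tumor. FAP was at 2.17 in the acinar and 0.420 in the solid tumor, on 14 and 3 estimated fragments. Both were past 2-fold higher in the acinar tumor on the scale defined below. COL1A1 was close in the tumors, at 30.7 in the acinar and 32.3 in the solid tumor. Its culture values were 29.5 in the mix and 19.3 in the single culture. COL3A1 was at 0.310 in the acinar and 1.12 in the solid tumor, on 2 and 8 estimated fragments. ACTA2, THY1 and PDGFRA were lower in both tumors than in both cultures. LUM was at 0.0805 in the mix culture and listed at 0 in the single culture. Of the 8 leukocyte markers 5 reached 1 scaled count in some library, and the list summed to 146 in the acinar and 239 in the solid tumor, mostly from the lysosomal gene CD68 (113 in the acinar and 175 in the solid tumor). LYZ, at 23.9 in the acinar and 49.4 in the solid tumor, and CD14, at 2.64 and 9.65, were past 2-fold lower in the acinar tumor, the direction of most HIF targets, while the defining marker PTPRC was at 1.40 and 1.26. The leukocyte sums of the cultures were 44.0 in the mix and 49.9 in the single culture. The 8 endothelial markers, of which 1 did so, summed to between 1.45 and 2.38 and the 5 erythroid markers to 0.420 or less in every library. These are values under human symbols and cannot show how much mouse tissue a tumor library held. The part of the fibroblast and leukocyte sums in the differences below was not tested. In bulk RNA, fewer cells that express a gene and less of its RNA per cell cannot be told apart.

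The HIF site core was searched in the promoters as a description. The members were chosen as HIF targets and HIF pathway genes, so a higher share of the core among them could be foreseen. It does not bear on the directions in the comparisons that follow. RefSeq promoter windows of GRCh38.p14, from 250 bases before to 50 after a gene's start, were found for 27 of the 34 genes (35 windows, since some genes have several starts). No window was matched for VHL, STC1, NDRG1, VEGFA, BNIP3L, JMJD6 and HILPDA. The letters ACGTG, on either strand, were in a window of 16 of the 27 genes (59.3%) and of 6790 of all 27305 genes with a window (24.9%). GCGTG, on either strand, was in a window of 14 of the 27 genes (51.9%) and of 11077 of all genes (40.6%). The members' windows were also richer in G and C, at 66.3% against 57.5% on average over all windows, and the part of this in the motif shares was not tested. A CACGTG reads as ACGTG on both strands and counts once per window. Below are the 250 bases before the start of 4 genes that the results turn on: CA9, the member that differed most between the tumors; PPFIA4, which was past 2-fold lower in both comparisons; EPAS1, which was past 2-fold higher in the mix culture; and EGLN1, whose level stayed close in both pairs. Capitals mark ACGTG and GCGTG or their reverse complements CACGT and CACGC, and each sequence runs 5′ to 3′ on the gene's strand. CA9 (chr9:35673678-35673927, plus strand) holds 1 match, PPFIA4 (chr1:203026241-203026490, plus strand) holds an ACGTG on each strand that overlap and a GCGTG, EPAS1 (chr2:46297157-46297406, plus strand) holds a GCGTG, and EGLN1 (chr1:231422288-231422537, minus strand) holds an ACGTG.
CA9: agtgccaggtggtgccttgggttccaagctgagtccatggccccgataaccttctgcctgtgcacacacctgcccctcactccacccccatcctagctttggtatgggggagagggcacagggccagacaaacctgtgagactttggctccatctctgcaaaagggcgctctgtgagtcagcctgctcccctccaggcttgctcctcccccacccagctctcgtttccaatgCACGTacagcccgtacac
PPFIA4: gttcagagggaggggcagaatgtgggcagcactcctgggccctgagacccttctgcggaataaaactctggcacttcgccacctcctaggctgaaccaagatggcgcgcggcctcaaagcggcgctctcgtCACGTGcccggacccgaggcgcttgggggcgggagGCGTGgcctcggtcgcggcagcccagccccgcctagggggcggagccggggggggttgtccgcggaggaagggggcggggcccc
EPAS1: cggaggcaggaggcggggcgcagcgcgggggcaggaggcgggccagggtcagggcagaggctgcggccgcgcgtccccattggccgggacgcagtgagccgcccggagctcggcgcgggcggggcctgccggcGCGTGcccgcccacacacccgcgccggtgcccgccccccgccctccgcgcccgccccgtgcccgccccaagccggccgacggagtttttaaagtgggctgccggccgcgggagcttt
EGLN1: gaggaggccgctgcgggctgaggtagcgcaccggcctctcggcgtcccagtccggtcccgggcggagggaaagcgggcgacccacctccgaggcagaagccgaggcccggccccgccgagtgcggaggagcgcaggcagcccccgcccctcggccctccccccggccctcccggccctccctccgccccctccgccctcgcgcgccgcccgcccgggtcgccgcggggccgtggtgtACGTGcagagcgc
The CA9 match begins 18 bases before the start on the opposite strand, and the EGLN1 match 13 bases before it on the gene's own strand. The letters were thus present both in the member that differed most between the tumors and in one that differed little. Among the 9 genes past 2-fold lower in the acinar tumor, ACGTG was in the windows of CA9, ANGPTL4, DDIT4 and PPFIA4, ADM and STC2 had GCGTG alone, EGLN3 had neither, and NDRG1 and HILPDA had no window. The match is a description of letters and not a record of HIF binding.

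The first comparison asks how tumor cells of acinar areas differ from those of solid areas. Most HIF targets were lower in the acinar tumor, led by the carbonic anhydrase CA9 and the secreted factors STC2, ADM and ANGPTL4, while the HIF subunits, VHL and the oxygen sensors EGLN1 and EGLN2 lay close together. A gene was measured in a pair if it had 1 scaled count or more in at least one of its libraries, and it was called past 2-fold if the log2 ratio of its values, each plus 1, was at least 1 in size. Of the 34 genes, 33 were measured, SERPINE3 being the exception. Of these, 29 had a ratio below 0, where 49.2% of all 13979 measured genes did. Past 2-fold lower were 9 of the 33 (CA9, STC2, ADM, ANGPTL4, HILPDA, EGLN3, PPFIA4, NDRG1 and DDIT4), against 2.55% of all measured genes. No member was past 2-fold higher, against 1.98% of all measured genes. The members' median log2 ratio was -0.55, within a range of -2.76 to 0.24, and the median of all genes was 0.01. Each group being 1 library, these differences have no check against replicates. The intervals given are 95% intervals of the fold and cover counting error only. They lay below 1 for 24 of the 29 members with whole fragment numbers in both tumors, against 16.7% of such genes at large, and above 1 for 1 member, STC1, against 18.4%. Whether an interval excludes 1 depends on the fragment number as well as the fold. The genes at large were not matched to the members for level.

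The second comparison sets A549 cells of the mix culture, read as grown with CAFs, against those of the single culture. With 1 library each, an effect of CAFs cannot be told apart from whatever else set a culture or library apart. The targets that act on mitochondria, chromatin and lipid were moderately lower in the mix culture, the secreted targets stayed close to the single culture, and EPAS1 was about 2-fold higher. Of 32 measured members, 23 had a ratio below 0, against 48.0% of 13485 measured genes. PPFIA4 was the 1 member past 2-fold lower, against 1.74% of all genes, and EPAS1 the 1 member past 2-fold higher, against 0.682%. The shares past 2-fold, each resting on 1 gene, are near enough to those backgrounds that no more is read from them. The median was -0.39, within a range of -1.18 to 1.04, and the median of all genes was 0.01. The counting interval lay below 1 for 19 of the 29 members with one, against 20.4% of such genes at large, and above 1 for 6, against 23.4%. Here too the genes at large were not matched for level. SERPINE3 and RORA were under the limit of 1 scaled count in both cultures.

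**Figure D1:**
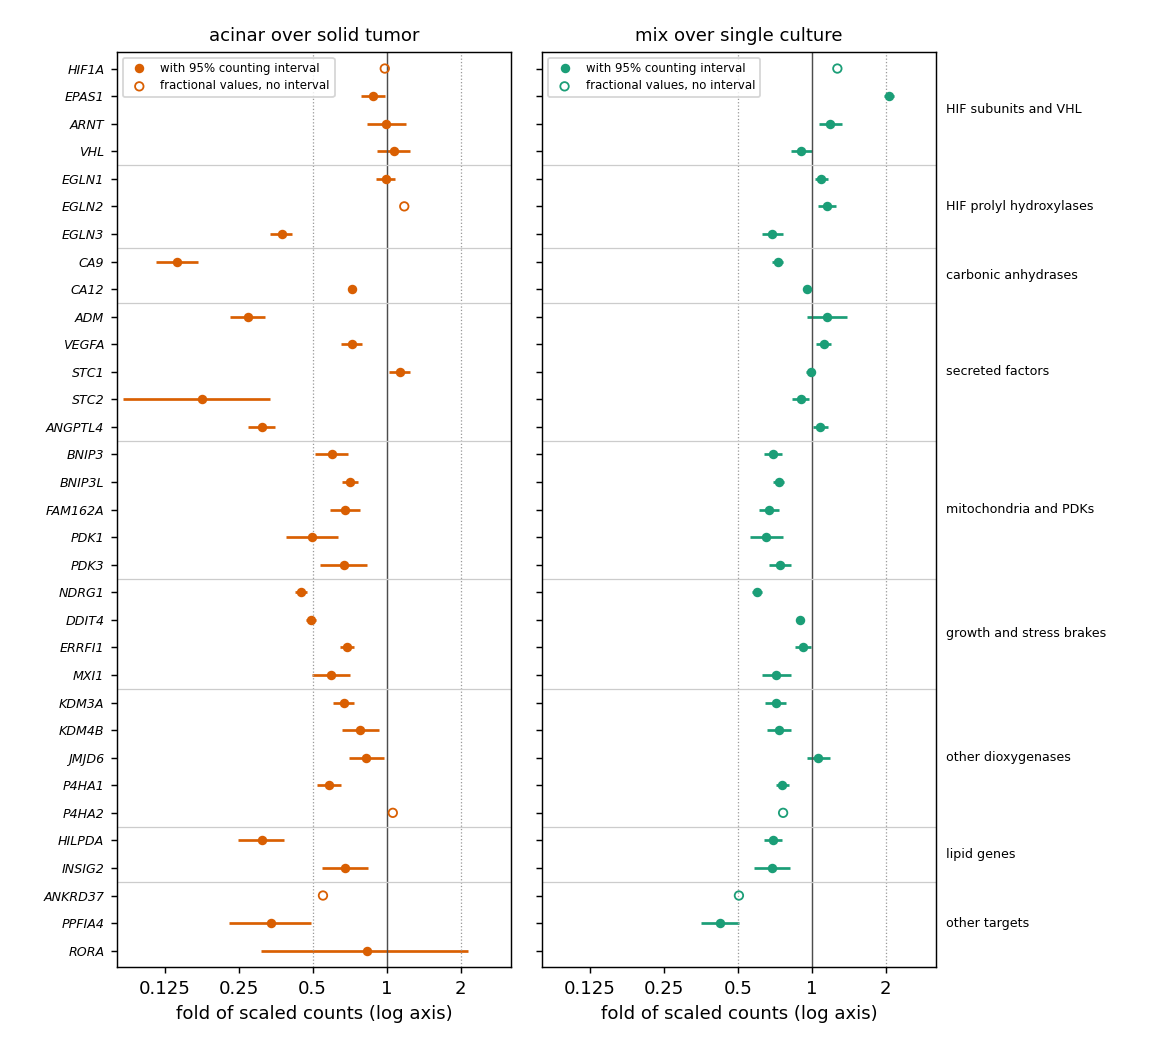
Fold of scaled counts on a log axis for 33 of the 34 genes, acinar over solid tumor on the left and mix over single culture on the right; bars are 95% counting intervals, open circles have fractional values and no interval, and dotted lines mark 2-fold either way. CA9 lies farthest left in the tumors at 0.141, while in the cultures the points from BNIP3 to PPFIA4 sit between 0.424 and 1.06 and EPAS1 alone lies past 2-fold on the right; SERPINE3 is not drawn, nor RORA in the cultures.

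Among the HIF subunits, which carry the transcriptional response, HIF1A was at 121 scaled counts in the acinar and 123 in the solid tumor, and at 759 in the mix and 599 in the single culture. Its values were fractional in part, so it has no counting interval, and its exons overlap those of an antisense gene. EPAS1, which encodes HIF-2α, was at 89.9 in the acinar and 102 in the solid tumor, a fold of 0.882 (0.790 to 0.985), and at 457 in the mix against 222 in the single culture. The tumors were close for both α subunits, and EPAS1 was 2.06-fold higher in the mix than in the single culture (1.96 to 2.16), the 75th highest ratio of the 13485 genes. ARNT, the β subunit, was at 36.3 and 36.4 in the acinar and solid tumors (fold 0.998, 0.833 to 1.20) and at 58.6 in the mix against 49.1 in the single culture (fold 1.19, 1.07 to 1.33). VHL, which targets hydroxylated α subunits for destruction, was at 50.2 in the acinar and 46.8 in the solid tumor, and at 65.9 in the mix and 72.7 in the single culture, and both counting intervals included 1.

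Per kilobase of annotated exon, a scale on which genes can be set side by side, HIF1A had 28.5 scaled counts in the acinar tumor, 29.0 in the solid tumor, 178 in the mix and 141 in the single culture. EPAS1 had 17.4, 19.7, 88.4 and 42.9 scaled counts per kilobase in the same libraries. HIF1A was thus the higher of the α subunits in all 4 libraries on this scale, by the smallest margin in the solid tumor. The β subunit ARNT was lower than either, between 7.34 and 11.9 scaled counts per kilobase.

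The prolyl hydroxylases split. EGLN1, the main oxygen sensor in most cells, was at 147 scaled counts in the acinar and 148 in the solid tumor (fold 0.990, 0.906 to 1.08), and at 213 in the mix and 195 in the single culture (fold 1.09, 1.03 to 1.16). EGLN2 was at 116 in the acinar and 97.9 in the solid tumor, and at 103 in the mix and 89.7 in the single culture, a fold of 1.15 for the cultures (1.06 to 1.25). An annotated readthrough transcript shares much of its exon sequence, 66.6% of its exon length being shared with other genes, so the assignment of its fragments is uncertain. EGLN3 is the family member that is itself strongly induced by HIF. It was at 78.1 in the acinar and 209 in the solid tumor, 2.67-fold lower (2.42 to 2.96), and at 56.1 in the mix and 81.4 in the single culture, 1.45-fold lower (1.31 to 1.60). The solid tumor therefore stood above the other 3 libraries for EGLN3. In scaled counts per kilobase EGLN3 was the highest of the 3 hydroxylases in the solid tumor, at 42.9, against 20.9 for EGLN1 and 32.4 for EGLN2, and the lowest in the acinar tumor, at 16.0, against 20.7 and 38.3.

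**Figure D2:**
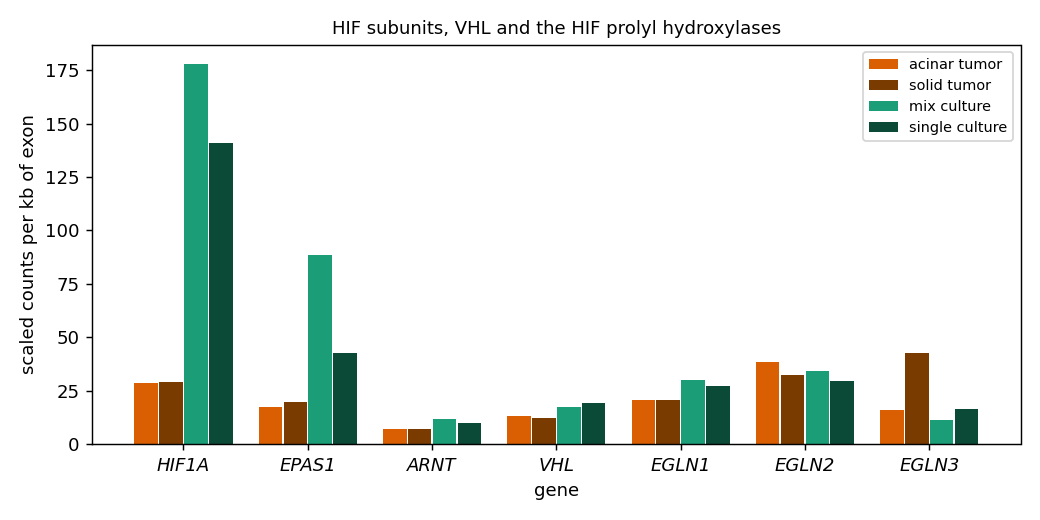
Scaled counts per kilobase of exon for the HIF subunits, VHL and the 3 prolyl hydroxylases; each bar is 1 library, so there are no error bars. HIF1A and EPAS1 stand higher in both cultures than in both tumors, up to 178 and 88.4 in the mix culture, and EGLN3 stands out in the solid tumor at 42.9.

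The membrane carbonic anhydrases hydrate carbon dioxide at the cell surface and help acid-producing cells hold their internal pH. CA9, one of the most HIF-dependent genes known, was at 17.8 scaled counts in the acinar and 127 in the solid tumor, and at 215 in the mix and 295 in the single culture. The acinar tumor was far below the other 3 libraries, and its ratio to the solid tumor (log2 -2.76) was the 10th lowest of 13979 genes. In the cultures CA9 was 1.37-fold lower in the mix (1.31 to 1.45). CA12, its close relative, was at 937 in the acinar and 1291 in the solid tumor and at 1091 in the mix and 1140 in the single culture. CA12 was 1.38-fold lower in the acinar tumor (1.33 to 1.42) and 1.04-fold lower in the mix culture (1.02 to 1.07), so the pair differed more in CA9 in both settings. Per kilobase, CA9 had 11.0 scaled counts in the acinar tumor against 146 for CA12 there, and 182 in the single culture against 178 for CA12.

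Of the secreted factors, ADM, ANGPTL4 and STC2 were past 2-fold lower in the acinar tumor, and no measured one was past 2-fold between the cultures. ADM, the vessel-dilating peptide adrenomedullin, was at 27.6 scaled counts in the acinar and 101 in the solid tumor, and at 20.6 in the mix and 17.9 in the single culture. The solid tumor alone was high, and the culture interval included 1 (fold 1.15, 0.955 to 1.39). ANGPTL4, an inhibitor of lipoprotein lipase, was at 50.1 in the acinar and 161 in the solid tumor, 3.21-fold lower (2.84 to 3.64), and at 147 in the mix and 136 in the single culture (fold 1.08, 1.01 to 1.16). Here the acinar tumor alone was low. ANGPTL4 is also a target of TGF-β. STC2, a stanniocalcin with roles in calcium and phosphate handling, was at 1.71 in the acinar and 9.65 in the solid tumor, and at 97.2 in the mix and 108 in the single culture. Its tumor ratio rests on 11 and 69 estimated fragments, and the interval of the fold, 0.0843 to 0.336, is wide.

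STC1, its paralog, went the other way in the tumors, at 125 in the acinar and 111 in the solid tumor (fold 1.13, 1.02 to 1.24), and did not differ beyond counting error between the cultures, at 306 in the mix and 309 in the single culture (0.943 to 1.03). VEGFA, the main growth factor of blood vessels, was at 110 in the acinar and 152 in the solid tumor, 1.39-fold lower (1.26 to 1.53), and at 144 in the mix and 129 in the single culture (fold 1.12, 1.04 to 1.20). VEGFA thus varied less across the 4 libraries than ADM or ANGPTL4. SERPINE3, a serpin gene listed here with the secreted factors, had about 3 estimated fragments in the solid tumor and 1 in the mix culture and was listed at 0 in the acinar tumor and the single culture. No fold is given, since a count of 0 allows up to 3 fragments, or 0.465 scaled counts for the acinar tumor and 0.267 for the single culture.

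The genes acting on mitochondria were lower in the acinar tumor and in the mix culture, each of the 5 in both. BNIP3 and BNIP3L encode outer-membrane receptors that mark mitochondria for autophagy. BNIP3 was at 39.5 scaled counts in the acinar and 66.1 in the solid tumor, 1.67-fold lower (1.43 to 1.96), and at 81.2 in the mix and 117 in the single culture, 1.44-fold lower (1.33 to 1.57). BNIP3L was at 176 in the acinar and 247 in the solid tumor, 1.40-fold lower (1.30 to 1.51), and at 230 in the mix and 313 in the single culture, 1.36-fold lower (1.30 to 1.43). FAM162A, a mitochondrial protein linked to hypoxic cell death, was at 48.2 in the acinar and 71.2 in the solid tumor and at 65.1 in the mix and 97.5 in the single culture. The pyruvate dehydrogenase kinases restrain the entry of pyruvate into the citric acid cycle. PDK1 was at 15.3 in the acinar and 30.9 in the solid tumor and at 23.9 in the mix and 36.6 in the single culture, 2.01-fold lower (1.58 to 2.58) and 1.53-fold lower (1.32 to 1.78). PDK3 was at 20.8 in the acinar and 31.0 in the solid tumor and at 57.6 in the mix and 77.7 in the single culture. The 5 log2 ratios ran from -0.96 to -0.49 in the tumors, with a median of -0.56, and from -0.59 to -0.42 in the cultures, with a median of -0.52. PDK1 just missed the 2-fold limit at a log2 ratio of -0.96, and reached it with a smaller pseudocount of 0.1.

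Genes that restrain growth or answer stress were lower too, in each case in both the acinar tumor and the mix culture. NDRG1, a differentiation-related protein induced by hypoxia in many tumors, was at 258 scaled counts in the acinar and 574 in the solid tumor, 2.23-fold lower (2.10 to 2.36), and at 222 in the mix and 372 in the single culture, 1.68-fold lower (1.60 to 1.76). DDIT4, which inhibits the growth kinase mTORC1, was at 349 in the acinar and 708 in the solid tumor, 2.03-fold lower (1.93 to 2.13), and at 612 in the mix and 686 in the single culture, 1.12-fold lower (1.09 to 1.16). DDIT4 has an annotated antisense gene over 48.5% of its exon length, and without a known strand setting the fragments of both cannot be told apart. ERRFI1, a feedback inhibitor of the EGF receptor, was at 251 in the acinar and 363 in the solid tumor and at 125 in the mix and 136 in the single culture. MXI1, an antagonist of MYC, was at 30.1 in the acinar and 50.6 in the solid tumor and at 29.6 in the mix and 41.2 in the single culture. NDRG1 and MXI1 differed in both settings, whereas DDIT4 and ERRFI1 differed by at most 1.12-fold between the cultures.

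The other dioxygenases need oxygen to work, as the EGLN enzymes do. KDM3A, a histone H3 lysine demethylase, was at 104 scaled counts in the acinar and 155 in the solid tumor, 1.49-fold lower (1.35 to 1.64), and at 58.1 in the mix and 81.5 in the single culture, 1.40-fold lower (1.27 to 1.55). KDM4B, another histone demethylase, was at 35.0 in the acinar and 44.8 in the solid tumor and at 46.5 in the mix and 62.9 in the single culture. JMJD6 was at 40.2 in the acinar and 48.5 in the solid tumor (fold 0.828, 0.702 to 0.975) and at 61.9 in the mix and 58.3 in the single culture, where the interval included 1 (0.956 to 1.18). P4HA1 and P4HA2 encode catalytic subunits of the enzyme that hydroxylates prolines of collagen. P4HA1 was at 76.7 in the acinar and 132 in the solid tumor, 1.72-fold lower (1.54 to 1.92), and at 164 in the mix and 216 in the single culture, 1.32-fold lower (1.24 to 1.40). P4HA2 was at 105 in the acinar and 98.5 in the solid tumor and at 138 in the mix and 181 in the single culture. The 2 collagen hydroxylase genes thus parted in the tumors and not in the cultures, although P4HA2 values were fractional and have no interval.

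Both lipid genes were lower in the acinar tumor and in the mix culture. HILPDA, which coats lipid droplets and slows their breakdown, was at 17.1 scaled counts in the acinar and 55.0 in the solid tumor, 3.22-fold lower (2.60 to 4.02), and at 78.6 in the mix and 113 in the single culture, 1.44-fold lower (1.33 to 1.57). INSIG2, an anchor that holds back sterol synthesis, was at 22.2 in the acinar and 32.7 in the solid tumor, 1.48-fold lower (1.19 to 1.83), and at 19.2 in the mix and 27.9 in the single culture, 1.45-fold lower (1.22 to 1.72). HILPDA therefore differed more between the tumors than INSIG2, and about as much between the cultures.

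PPFIA4, a liprin scaffold gene, was at 5.74 scaled counts in the acinar and 16.9 in the solid tumor, 2.95-fold lower (2.03 to 4.39), and at 14.7 in the mix and 34.8 in the single culture, 2.36-fold lower (1.97 to 2.83). It was the 1 member past 2-fold lower in both pairs, where 0.295% of the 12903 genes measured in both were. ANKRD37, a small ankyrin repeat protein induced by HIF, was at 2.99 in the acinar and 5.43 in the solid tumor and at 0.882 in the mix and 1.75 in the single culture, with fractional values that rest on 11 to 39 estimated fragments. RORA, a nuclear receptor gene, had between 6 and 12 estimated fragments per library, and its tumor interval, 0.309 to 2.15, is too wide to give a direction.

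**Figure D3:**
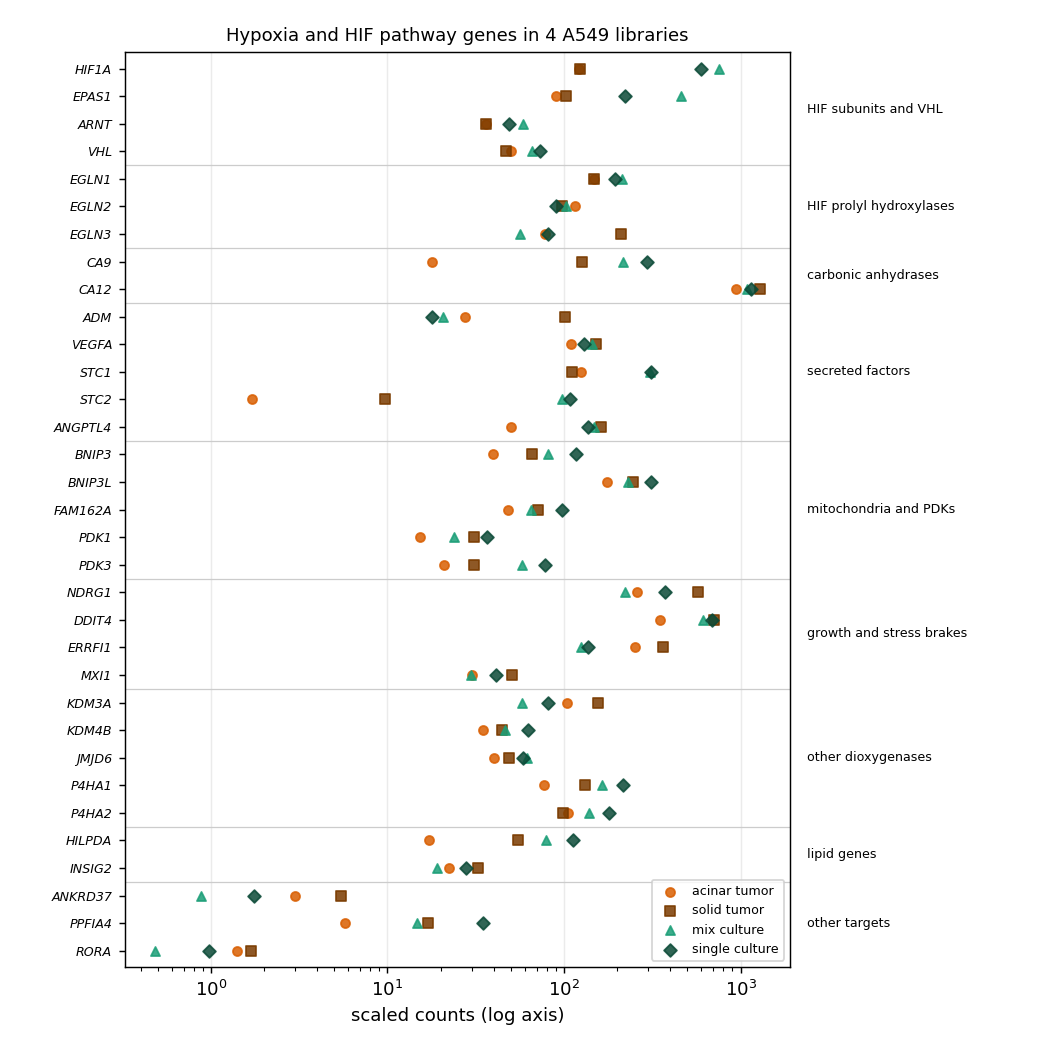
Scaled counts on a log axis for 33 of the 34 genes, grouped by role, with 1 point per library (SERPINE3 is not drawn). For CA9, ANGPTL4 and HILPDA the acinar tumor lies to the left of the other 3 libraries, while for ADM, EGLN3 and NDRG1 the solid tumor lies to the right of them.

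Set against each other, the pairs shared a direction for most members, while the size was close for some and differed for others. Of the 32 members measured in both pairs, which have no library in common, 20 had a ratio below 0 in both, against 26.0% of all 12903 genes. A further 8 had a ratio below 0 in the tumors and above 0 in the cultures, near the 22.7% of all genes. Among them were HIF1A, EPAS1, ADM, ANGPTL4 and VEGFA. Of these 8, HIF1A, ARNT and EGLN1 were nearly equal in the tumors, at folds of 0.983, 0.998 and 0.990. The culture intervals of ADM and JMJD6 included 1. VHL, STC1 and P4HA2 had a ratio above 0 in the tumors and below 0 in the cultures, against 21.5%. EGLN2 was above 0 in both, against 29.8%. The intervals of VHL in both pairs and of STC1 in the cultures included 1, and P4HA2 had none. The largest tumor differences did not carry over in size. CA9, STC2, ADM and ANGPTL4 had log2 ratios of -2.76, -1.98, -1.84 and -1.66 in the tumors. In the cultures these genes had -0.46, -0.15, 0.20 and 0.11, so CA9 and STC2 kept the direction. HILPDA, EGLN3, PPFIA4 and NDRG1, next in size, had -1.63, -1.41, -1.41 and -1.15 in the tumors and -0.52, -0.53, -1.18 and -0.74 in the cultures. DDIT4 had -1.02 in the tumors and -0.16 in the cultures. BNIP3L, FAM162A and INSIG2, by contrast, had nearly the same log2 ratio in both, at -0.49, -0.55 and -0.54 in the tumors and -0.44, -0.57 and -0.51 in the cultures. The difference between the pairs itself was not tested.

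**Figure D4:**
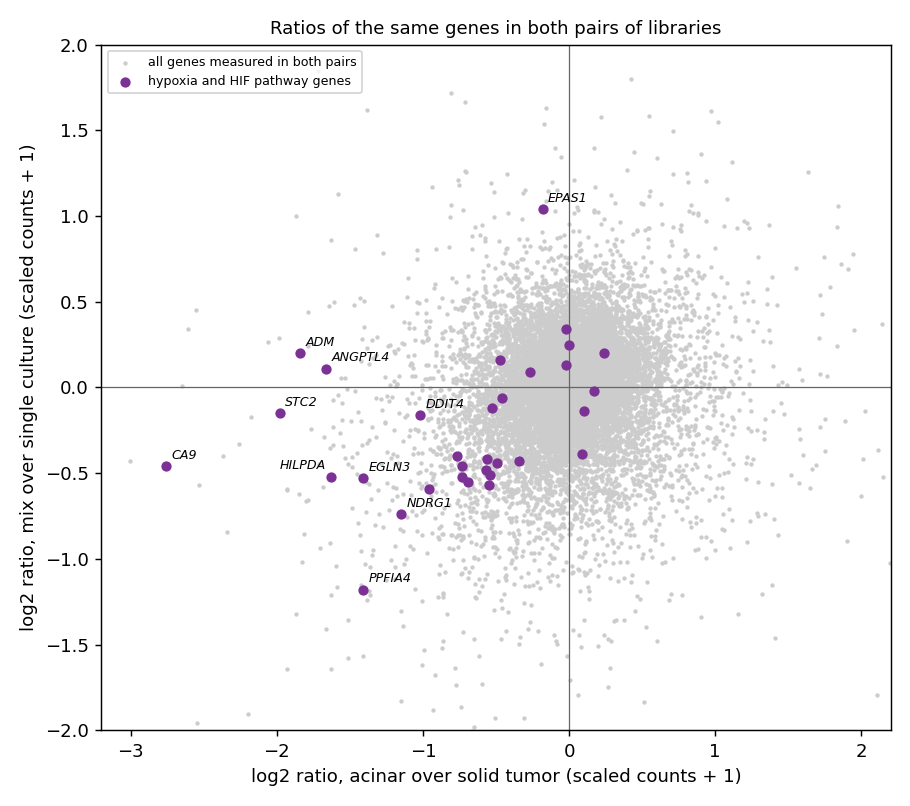
The log2 ratio of acinar over solid tumor (horizontal) against that of mix over single culture (vertical), in scaled counts plus 1; purple points are the 32 members measured in both pairs and grey points all genes measured in both, of which 37 lie outside the axes. A group of members sits near -0.5 on both axes, STC2, ADM and ANGPTL4 lie far to the left near the horizontal line, CA9 lies farthest left at -2.76, PPFIA4 lies past -1 on both axes and EPAS1 is the highest member at 1.04.

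Tumors and cultures differ in host, growth form and the way the cells were isolated, and these cannot be told apart. Of 33 members with 1 scaled count or more in any library, 15 were lower in both tumors than in both cultures, against 38.7% of 14561 genes, and 5 were higher in both tumors (ADM, ERRFI1, KDM3A, ANKRD37 and RORA), against 39.8%. RORA rests on 6 to 12 estimated fragments per library, too few to give a side, and ANKRD37 on 11 to 39. At 2-fold or more 4 were lower in both tumors (HIF1A, EPAS1, STC1 and STC2), against 8.22%, and none was higher, against 9.67%. The shares lower in both tumors lie near those of all genes, and no more is read from them. HIF1A was between 4.85-fold and 6.26-fold lower in a tumor than in a culture, and EPAS1 between 2.18-fold and 5.08-fold. STC2 was at least 10.1-fold lower and STC1 2.44-fold to 2.78-fold lower. ERRFI1 was 1.84-fold to 2.89-fold higher in a tumor than in a culture. The genes past 2-fold lower in the acinar tumor lay on no single side here. The cultures overlapped the tumors in EGLN3, NDRG1, DDIT4, ANGPTL4 and PPFIA4, while CA9, STC2 and HILPDA were higher in both cultures and ADM was higher in both tumors.

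Further genes of the pathway were taken from lists drawn by textbook role, also with earlier results of these data known. Their shares are therefore a description and not independent support for the members' direction. Of 35 other HIF targets outside glycolysis, 34 were measured in the tumors: 25 had a ratio below 0 (49.2% of all genes did), 5 were past 2-fold lower (2.55% of all genes) and none past 2-fold higher (1.98% of all genes), with a median log2 ratio of -0.33. IGFBP3, an IGF-binding protein, was at 907 scaled counts in the acinar and 2686 in the solid tumor, 2.96-fold lower (2.88 to 3.05). MIR210HG, the host transcript of a hypoxia-induced microRNA, was at 52.7 in the acinar and 123 in the solid tumor, 2.33-fold lower (2.06 to 2.65). Also past 2-fold lower were HEY1, at 0.930 in the acinar and 3.50 in the solid tumor, C4orf47, at 0.465 in the acinar and 1.96 in the solid tumor, and TMEM45A, chosen after its values were seen, at 6.67 in the acinar and 14.4 in the solid tumor. C4orf47 rests on 3 and 14 estimated fragments. In the cultures 33 of these targets were measured, 23 with a ratio below 0 (48.0% of all genes) and none past 2-fold lower (1.74% of all genes), with a median of -0.21.

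The 21 glycolysis and glucose transport targets had 19 ratios below 0 in the tumors, against 49.2% of all genes, and 4 past 2-fold lower, against 2.55%, with a median of -0.51. In the cultures 12 of the 21 were below 0, near the 48.0% of all genes, and 2 were past 2-fold lower, against 1.74%, with a median of -0.18. HK2, the inducible hexokinase, was at 8.53 in the acinar and 25.6 in the solid tumor and at 5.88 in the mix and 30.9 in the single culture, past 2-fold lower in both. ALDOC, an aldolase, was also past 2-fold lower in both, at 15.2 in the acinar and 35.9 in the solid tumor and at 110 in the mix and 229 in the single culture. The other 2 past 2-fold lower in the tumors were the glucose transporter gene SLC2A3, at 36.3 in the acinar and 83.8 in the solid tumor, and PFKFB3, a regulator of glycolytic flux, at 61.2 in the acinar and 131 in the solid tumor. Of 16 HIF partners, among them the asparagine hydroxylase HIF1AN, the coactivators EP300 and CREBBP and the VHL complex genes CUL2, TCEB1, TCEB2 and RBX1, 15 were measured in each pair and none was past 2-fold. Their medians were 0.12 in the tumors and -0.01 in the cultures, against 0.01 for all genes in each. In the tumors 10 of the 15 had a ratio above 0 and 5 below. Their counting interval lay above 1 for 6, against 18.4% of genes at large, and below 1 for 2, against 16.7%. In the cultures 7 were above 0 and 8 below, with the interval above 1 for 5, against 23.4%, and below 1 for 2, against 20.4%.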

How the data were processed

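A549 cells were sequenced in 4 libraries from TruSeq RNA kits, per the labels' protocols, and each title gave the group. Cuffdiff 2.2.1, SAMtools 1.0, Bowtie2 2.2.3, TopHat2 2.0.13 and build hg19 appear, without roles, in the submitters' processing notes. Gene models, read filters and strandedness: not given in the sources used here. What the authors deposited is 1 table of signal values, called raw signal per the file headers. Of the values above 0, between 90.0% and 91.2% per library were whole multiples, within 0.05, of a step common to all genes of that library (1.39 acinar, 1.25 solid, 0.720 mix, 0.795 single), as fragment counts divided by a size factor would be. The step gave the estimated fragments. All values were divided by 8.94. No count model was fitted, because the rest were fractional.

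Ratios are log2((value + 1)/(value + 1)) over genes reaching 1 scaled count in either library of a pair. This scale understates differences of low genes. Printed folds are plain ratios. Their 95% intervals are exact (Clopper-Pearson) conditional binomial intervals on estimated fragments, given where both values were whole. They cover counting error only, since fragments carry no molecular identifiers. With 1 library per group there is no test. Exon lengths and overlaps came from GENCODE 29 basic (GRCh38), so lengths approximate the authors' models. Exons of 15 of the 34 genes overlap another gene. Alternatives were pseudocounts of 0.1 and 5, no filter or a filter of 5, 3 other scalings, and only whole-fragment genes. The members and lists were chosen with earlier results of these data known. All 34 members are named, with up to 4 genes past 2-fold per comparison from each of 3 pathway lists, those with the largest ratios. TMEM45A was named outside this rule, after its values were seen. A gene that this rule names is not reported here. Ratios and intervals were tested on simulated fragments with counting error alone. That checks the calculation and not the spread between libraries or the fractional values. Python 3.11.15, pandas 2.3.3, NumPy 2.4.6, SciPy 1.17.1 and Matplotlib 3.10.9 were used.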

Additional observations from a re-analysis of the deposited data

How the results depend on the processing

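The counts of members past 2-fold were 9 to 10 for acinar against solid tumor, 2 throughout for mix against single culture, and 3 to 4 for tumors against cultures under all 8 alternatives. The extra gene in the tumors was PDK1 with a pseudocount of 0.1. The members' median log2 ratio for acinar against solid tumor ran from -0.57 to -0.48. For mix against single culture it was -0.29 with a pseudocount of 5, against -0.39, the larger pseudocount shrinking ratios by construction, and between -0.41 and -0.39 otherwise. Under other scalings and pseudocounts, each of 325 single log2 ratios moved by no more than the longer arm of a counting interval on estimated fragments, rounded where fractional, and none changed sign. STC2 in the tumors was at -1.13 with a pseudocount of 5, against -1.98. The share of all genes past 2-fold depended more on the pseudocount: for the tumors it was 8.37% with 0.1 and 1.54% with 5, against 4.54%, and for the cultures 5.29% and 0.786%, against 2.42%. With a pseudocount of 0.1, 692 genes were past 2-fold lower and 478 higher in the acinar tumor, and with 5 these were 101 and 114, against 357 and 277. For the mix culture they were 522 and 192 with 0.1 and 73 and 33 with 5, against 234 and 92. No paired analysis was possible because each group has 1 library, and for the same reason no library could be left out. Depth limits STC2, ANKRD37, RORA and SERPINE3, which rest on few fragments in the tumors.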
